A study of Mus musculus with 8 samples.

Results

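The genes described here encode the integrin CD103, the beta 7 chain it pairs with, the alpha 4 chain that shares that partner, its ligand E-cadherin, a second receptor for that ligand, and the catenins that hold E-cadherin to the cytoskeleton. They were taken by symbol from a table of 13245 genes: Itgae, Itgb7, Itga4, Cdh1, Klrg1, Ctnnb1, Ctnna1 and Ctnnd1. Of these 8 named genes 7 had a value, and Ctnnd1, which encodes p120 catenin, was not analysed here.

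RNA-seq had been carried out on mouse lymph node CD8 T cells that were sorted as positive for both Ly6C and CXCR3, which the series title calls memory phenotype. The libraries form 2 groups of 4: CD103Tg mice, which according to the series title overexpress CD103, and wild-type C57BL/6 mice, called B6. Both groups are labelled as lymph node CD8 T cells, and no other allele or treatment is given for either. The promoter that drives the transgene, the age of the mice and whether each library came from 1 animal or from several are not stated in the sources. The p-values therefore measure only the spread between these libraries, which may be technical.

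An integrin is a pair of an alpha and a beta chain. CD103 is the alpha E chain, which reaches the cell surface paired with beta 7 and binds E-cadherin on epithelial cells, and so helps T cells stay in epithelia. Beta 7 also pairs with alpha 4, and that integrin binds MAdCAM-1 and directs lymphocytes to the gut, while alpha 4 paired with beta 1 binds VCAM-1. E-cadherin is anchored to actin through beta-catenin and alpha-catenin, and it is also bound by KLRG1, an inhibitory receptor of effector T cells and natural killer cells. Beta-catenin has a further role as a partner of TCF1 and LEF1 in the nucleus.

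Values are CPM, reads divided by library size after TMM scaling, and the estimated reads over the listed genes ranged from 50187279 to 56371476 per library. The test was limma on log2(CPM + 1) for genes that averaged at least 1 CPM in the 8 libraries, with Benjamini-Hochberg adjustment over all 11503 genes tested, and a gene was called at an adjusted p under 0.05. All fold changes are on that scale, which understates the change of low genes. The markers of the sorted cells were present in every library. Cd8a stood at 944 to 1044 CPM in CD103Tg and 1150 to 1228 CPM in B6. Ly6c2 was at 2758 to 3313 CPM in CD103Tg and 2498 to 3115 CPM in B6. Cxcr3 was at 415 to 489 CPM in CD103Tg and 506 to 542 CPM in B6, without overlap. Cd8a was called lower (limma adjusted p = 0.00602), and Cxcr3 and Ly6c2 did not pass (limma adjusted p = 0.0529 and 0.355). Replicate 4 of each group stood nearer to the other group than its fellows did. Among 3587 called genes outside the adhesion genes, CD103Tg replicate 4 was the CD103Tg library closest to the B6 mean in 45.0%, against 13.5% to 21.5% for its fellows. B6 replicate 4 was the B6 library closest to the CD103Tg mean in 33.4%, against 20.96% to 23.2%. Haemoglobin RNA was also high in these libraries, with Hbb-bs at 71.0 CPM in CD103Tg replicate 4 and 22.1 CPM in B6 replicate 4, and at most 3.81 and 2.42 CPM in the other libraries of each group. The libraries also differed in sex-linked RNA: Xist and the Y-linked Ddx3y were both above 20 CPM in CD103Tg replicates 1, 3 and 4. In no B6 library were both above 20 CPM, so the groups differed in sex-linked RNA. B6 replicate 3 had 72.0 CPM of Xist and Ddx3y listed at 0. Whether animals of both sexes were pooled is not stated. The 5 adhesion genes called below were also called without both libraries numbered 4 and with the Y-linked gene level in the fit. For Itgae and Klrg1 this carries the limits given below.

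Of the 7 genes, 5 were called, 4 higher and 1 lower in CD103Tg, and 2 did not pass the test. Among all genes tested, 31.2% were called, 17.4% as higher and 13.8% as lower, so a called gene is common in this comparison. Klrg1 passed the filter on low values only through its CD103Tg libraries, so its call adds nothing to that count. Itgae encodes CD103, which these mice overexpress according to the series title. Its call was therefore set by the design and adds nothing to that count either. Of the 6 genes that averaged at least 1 CPM in both groups, 4 were called, Itgae among them. The same 5 genes, Itgae and Klrg1 included, had groups that did not overlap, which held for 31% of all genes tested.

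**Figure D1:**
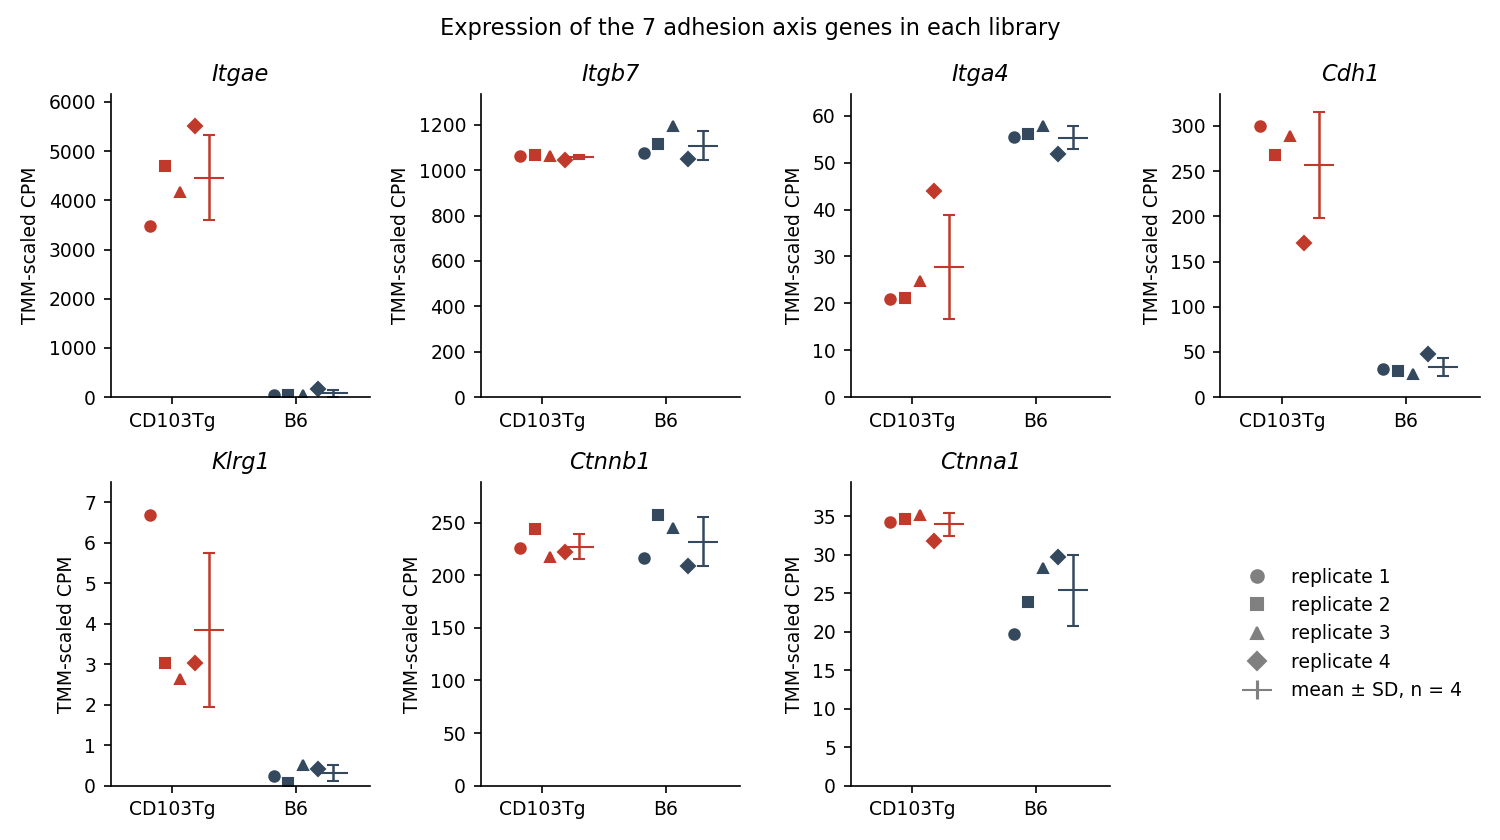
Expression of each adhesion gene in TMM-scaled CPM, with 1 point per library, a symbol for each replicate number and the mean ± SD of each group (n = 4). CD103Tg libraries lie above all B6 libraries for Itgae, Cdh1, Klrg1 and Ctnna1 and below them for Itga4, while the groups overlap for Itgb7 and Ctnnb1.

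Itgae, which encodes the alpha E chain (GRCm38 chromosome 11, 73090583 to 73147446, plus strand), checks the labels. It stood at 3469, 4692, 4169 and 5509 CPM in CD103Tg replicates 1 to 4, against 41.4, 51.4, 37.5 and 173.9 CPM in B6 replicates 1 to 4. Every CD103Tg library was far above every B6 library, and B6 replicate 4 was the highest of its group. The log2 fold change was 6.14 ± 0.39 (SE), with a 95% interval of 5.29 to 6.995 (limma adjusted p = 1.6e-06). Without replicate 4 the B6 mean was 43.5 CPM, against 76.1 CPM with it, and the log2 fold change was 6.64. Gene-level values do not separate RNA of the transgene from RNA of the mouse's own Itgae gene. Haspin, a mitotic kinase gene that lies within the Itgae gene on the opposite strand and shares no exon base with it, stood at 29.0 to 34.6 CPM in CD103Tg and 21.2 to 25.1 CPM in B6. Cd247, which encodes the CD3 zeta chain of the T cell receptor, moved beside Itgae, at 8711 ± 1001 CPM in CD103Tg and 345 ± 89.2 CPM in B6 (SD, n = 4 each; limma adjusted p = 3.03e-08). The design cannot tell its part in the results that follow apart from that of CD103.

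Itgb7, the beta 7 chain that alpha E needs at the surface (chromosome 15, 102215995 to 102231944, minus strand), was at 1061, 1066, 1062 and 1045 CPM in CD103Tg, against 1075, 1116, 1195 and 1048 CPM in B6. The ranges overlap, and the CD103Tg libraries were nearly equal (1058 ± 9.34 CPM, against 1108 ± 63.8 CPM in B6; SD, n = 4 each). The difference on the log2 scale was -0.06 ± 0.06 (SE; limma adjusted p = 0.423). Its 95% interval of -0.19 to 0.06 leaves room for a small decrease, and a test that misses the threshold does not show that the groups were equal.

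Itga4, the alpha 4 chain that also pairs with beta 7 (chromosome 2, 79255426 to 79333123, plus strand), was the gene that fell. It was at 20.8, 21.03, 24.8 and 44.0 CPM in CD103Tg, against 55.4, 56.2, 57.8 and 51.9 CPM in B6. No CD103Tg library reached a B6 library, but CD103Tg replicate 4 lay much nearer to B6 than the other CD103Tg libraries, which differed little. The difference on the log2 scale was -1.04 ± 0.19 (SE; limma adjusted p = 0.00169), and it was -1.28 without CD103Tg replicate 4. Its exons share 1124 of 13978 bases with Cerkl on the opposite strand, and the library kit does not mark strand, so reads there cannot be separated. Cerkl was low, at 2.32 to 3.33 CPM in CD103Tg and 1.76 to 3.43 CPM in B6. In whole-library RNA, fewer cells with a transcript and less of it per cell cannot be told apart.

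The promoters of Itga4 and Itgb7 are shown because these partner chains of 1 integrin parted in the comparison. Each sequence is the 250 bases before the RefSeq start (GRCm38.p6), 5′ to 3′ on the gene's strand, with motif matches in capitals. Itga4 lies on the plus strand at chr2:79255176-79255425 and Itgb7 on the minus strand at chr15:102231936-102232185.
Itga4: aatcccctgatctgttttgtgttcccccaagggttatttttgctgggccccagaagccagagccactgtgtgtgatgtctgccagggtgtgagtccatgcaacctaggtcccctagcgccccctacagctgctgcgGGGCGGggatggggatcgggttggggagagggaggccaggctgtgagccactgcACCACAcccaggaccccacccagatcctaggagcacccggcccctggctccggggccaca
Itgb7: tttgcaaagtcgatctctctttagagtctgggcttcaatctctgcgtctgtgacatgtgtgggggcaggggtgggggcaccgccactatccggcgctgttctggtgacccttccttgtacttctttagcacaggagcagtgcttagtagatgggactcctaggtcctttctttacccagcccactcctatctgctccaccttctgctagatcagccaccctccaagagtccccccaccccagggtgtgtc
The motifs searched, on both strands, were the RUNX core TGTGGT, the GC box GGGCGG bound by SP1, the ETS core CCGGAA and the SMAD palindrome GTCTAGAC, and none of the matches overlap. The Itga4 window held 1 RUNX core match, at positions -60 to -55 from the start, and 1 GC box, at -114 to -109. No match to any of them was in the Itgb7 window. Among 32851 promoter windows of the same length, 14.05% held the RUNX core, 32.7% the GC box, 12.0% the ETS core and 0.167% the SMAD palindrome. A match is a description of the letters, and its absence says nothing about the factor.

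Cdh1, the E-cadherin gene and so the ligand of CD103 (chromosome 8, 106603351 to 106670246, plus strand), rose in the CD103Tg libraries. It was at 299.9, 267, 289 and 171 CPM in CD103Tg, against 30.8, 29.4, 26.2 and 48.2 CPM in B6. The lowest CD103Tg library, replicate 4, was still well above the highest B6 library, which was also replicate 4. The log2 fold change was 2.90 ± 0.20 (SE), with a 95% interval of 2.46 to 3.34 (limma adjusted p = 2.54e-06), and Cdh1 ranked 61 by p among the 11503 genes. The call held without both libraries numbered 4, with a log2 fold change of 3.27.

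Epithelial and dendritic cells also express E-cadherin, so their markers are given beside it. Of 12 epithelial markers 2 were measured: Epcam was lower, at 3.60 to 4.86 CPM in CD103Tg and 5.66 to 7.71 CPM in B6, and Cldn4 was at 0.224 to 0.763 CPM in CD103Tg and 0.709 to 1.70 CPM in B6. The keratin genes Krt5, Krt8, Krt14, Krt18 and Krt19 were not analysed here. Of 12 dendritic cell markers 11 were measured and 9 tested. Of these 5 rose and 0 fell, beside 17.4% higher and 13.8% lower among all genes tested. The summed level of the list was 69.7 to 91.0 CPM in CD103Tg and 34.1 to 39.9 CPM in B6. The 5 that rose were the class II genes H2-Ab1 and H2-Aa, the integrin gene Itgax, Xcr1 and Siglech. Siglech passed the filter on low values only through its CD103Tg libraries. Zbtb46, at 1.59 to 2.66 CPM in CD103Tg and 1.21 to 2.15 CPM in B6, Ccr9, Fscn1 and Ccl22 did not pass. Itgax was at 22.0 to 33.4 CPM in CD103Tg and 4.25 to 8.66 CPM in B6. H2-Ab1 was at 10.8 to 17.1 CPM in CD103Tg and 1.89 to 3.91 CPM in B6, and Xcr1 was at 4.17 to 5.49 CPM in CD103Tg and 2.18 to 4.06 CPM in B6. Flt3, under the filter, was at 0.447 to 1.07 CPM in CD103Tg and 0 to 0.871 CPM in B6. Of 4 Langerhans cell markers 3 were measured: Cd74 rose, and Mfge8 and Epcam fell. Cd74 was at 32.8 to 51.2 CPM in CD103Tg and 8.06 to 13.4 CPM in B6. Mfge8 was at 11.7 to 14.7 CPM in CD103Tg and 19.1 to 22.3 CPM in B6. The summed level of the list was 52.0 to 69.0 CPM in CD103Tg and 34.9 to 39.2 CPM in B6, and its rise came from Cd74 alone. The part of dendritic cells in the Cdh1 result was not tested.

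Klrg1, the second receptor for E-cadherin (chromosome 6, 122270596 to 122282882, minus strand), rested on the fewest reads of these genes. It was at 6.69, 3.04, 2.62 and 3.03 CPM in CD103Tg, against 0.238, 0.0780, 0.518 and 0.410 CPM in B6. These values rest on 329, 150, 141 and 158 estimated reads in CD103Tg and 13, 4, 27 and 24 in B6. CD103Tg replicate 1 stood well above the other CD103Tg libraries, and every CD103Tg library was above every B6 library. The ratio of the group means was 12.4, and the difference on the log2 scale was 1.83 ± 0.23 (SE; limma adjusted p = 0.000128), since a pseudocount of 1 shrinks a gene at this level. Pseudocounts of 0.1 and 5 gave log2 fold changes of 3.31 and 0.71, both called. Klrg1 averaged 0.311 CPM in B6 and so entered the test only through its CD103Tg libraries. These p-values and calls therefore support nothing by themselves. Of 8 natural killer cell markers, whose cells also express Klrg1, 6 were measured and 5 tested. Of these 3 rose and 0 fell, beside 17.4% higher and 13.8% lower among all genes tested. The summed level of the list was 317 to 396 CPM in CD103Tg and 161 to 191 CPM in B6. Most of it was Eomes, which memory CD8 T cells also express. The other 2 that rose were the NK receptor genes Klrb1c, at 5.14 to 8.93 CPM in CD103Tg and 2.91 to 4.10 CPM in B6 (limma adjusted p = 0.00226), and Klra8, at 1.46 to 3.99 CPM in CD103Tg and 0.566 to 1.30 CPM in B6 (limma adjusted p = 0.00520), which passed the filter on low values only through CD103Tg. The NK receptor gene Ncr1, under the filter, was at 0.183 to 0.613 CPM in CD103Tg and 0.345 to 0.660 CPM in B6. The part of such cells in the Klrg1 result was not tested.

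Ctnnb1, the beta-catenin gene (chromosome 9, 120929216 to 120960507, plus strand), was at 226, 244, 217 and 222 CPM in CD103Tg, against 216, 258, 245 and 208 CPM in B6. The CD103Tg range lay within the B6 range. The difference on the log2 scale was -0.02 ± 0.07 (SE; limma adjusted p = 0.833), with a 95% interval of -0.18 to 0.13. Ctnnb1 shares 759 exon bases with Ulk4 on the opposite strand, which was at most 1.39 CPM in any library.

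Ctnna1, the alpha-catenin gene (chromosome 18, 35118859 to 35254779, plus strand), rose slightly. It was at 34.2, 34.6, 35.2 and 31.8 CPM in CD103Tg, against 19.6, 23.8, 28.3 and 29.7 CPM in B6. The CD103Tg libraries were close together and the B6 libraries spread widely, with only a narrow gap between the lowest CD103Tg and the highest B6 library. The difference on the log2 scale was 0.42 ± 0.11 (SE; limma adjusted p = 0.0152), with a 95% interval of 0.17 to 0.67. Its exons share 95 bases with Lrrtm2 on the opposite strand, which was not analysed here. Leaving out 1 library at a time gave log2 fold changes of 0.31 to 0.50, with limma adjusted p from 0.00605 to 0.0423.

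**Figure D2:**
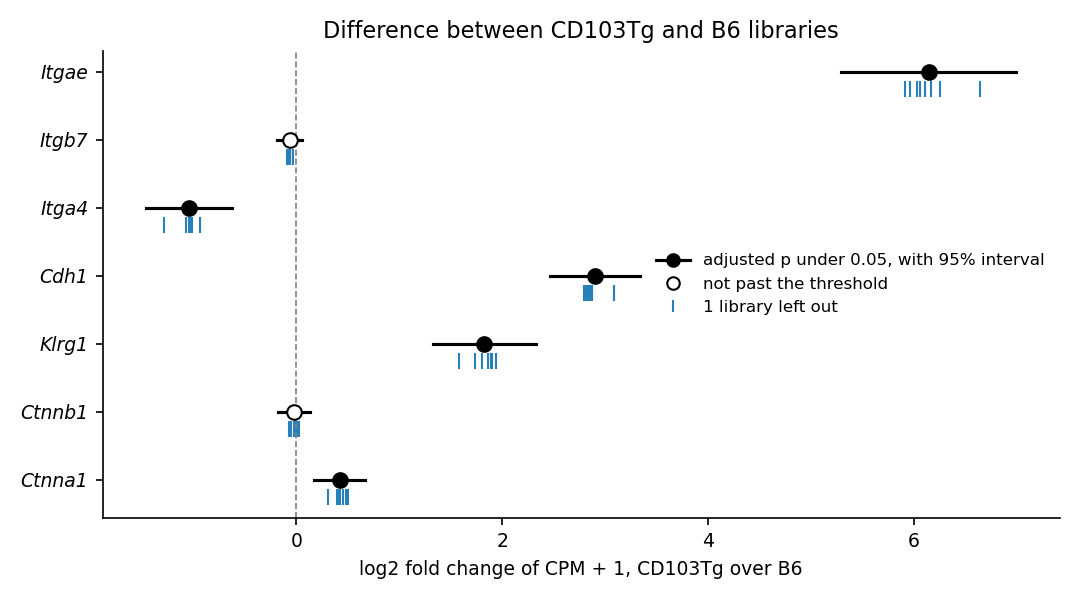
Log2 fold change of CPM + 1 in CD103Tg over B6 for each gene, with the 95% interval from limma as a line and the value with each library left out in turn as blue ticks. Filled circles passed an adjusted p of 0.05, and the open circles of Itgb7 and Ctnnb1, at -0.06 and -0.02, did not.

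Levels of different genes were set side by side only per kilobase of exon, taking the union of a gene's annotated exons in GENCODE M21. In CD103Tg the order was Itgae at 974 ± 188, Itgb7 at 382 ± 3.37, Cdh1 at 56.1 ± 12.9, Ctnnb1 at 43.8 ± 2.26, Ctnna1 at 5.28 ± 0.230, Klrg1 at 2.72 ± 1.35 and Itga4 at 1.98 ± 0.791 CPM per kilobase (SD, n = 4). The libraries of Cdh1 and Ctnnb1 overlapped, as did those of Klrg1 and Itga4, and the other neighbours did not. In B6 the order was Itgb7 at 400 ± 23.0, Ctnnb1 at 44.6 ± 4.49, Itgae at 16.6 ± 14.3, Cdh1 at 7.35 ± 2.16, Itga4 at 3.96 ± 0.177, Ctnna1 at 3.95 ± 0.712 and Klrg1 at 0.220 ± 0.137 CPM per kilobase (SD, n = 4). There Itgae overlapped Cdh1, and Itga4 overlapped Ctnna1. With the longest annotated transcript as the length, Ctnnb1 came before Cdh1 and Itga4 before Klrg1 in CD103Tg, and Ctnna1 before Itga4 in B6. Per length, then, Itgae stood at rank 1 in CD103Tg and at rank 3 in B6, where Itgb7 led. The rank in CD103Tg rests on the annotated length, since RNA of the transgene cannot be separated.

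**Figure D3:**
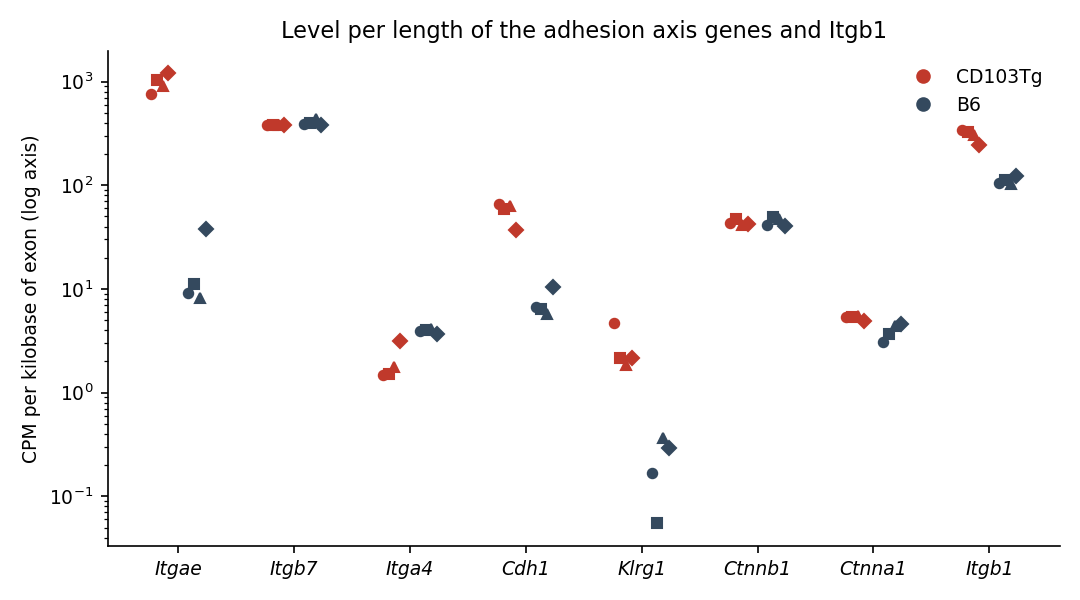
CPM per kilobase of exon on a log axis for the 7 adhesion genes and Itgb1, with 1 point per library and CD103Tg left of B6. Itgae lies above Itgb7 in the 4 CD103Tg libraries, with means of 974 and 382, and below it in the 4 B6 libraries, with means of 16.6 and 400.

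Ratios between partner chains were taken within each library from the per-kilobase levels, and 6 ratios were tested by a two-sided exact permutation test over 70 assignments, whose smallest possible p is 0.0286. Their p-values were adjusted over the 6 ratios. The ratio of Itgae to Itgb7 was 1.98, 2.66, 2.37 and 3.19 in CD103Tg, against 0.0233, 0.0279, 0.0190 and 0.1003 in B6. Per annotated length, the alpha E level thus exceeded the beta 7 level in every CD103Tg library and was below it in every B6 library. The log2 difference was 6.24 ± 0.56 (SE; exact permutation adjusted p = 0.0343). CD103 is overexpressed by design, so a shift in ratios that hold Itgae was set in advance and their p-values support nothing. The levels use the length of the mouse's own Itgae exons, and RNA of the transgene, which may differ in length, cannot be separated.

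The ratio of Itga4 to Itgb7 was 0.00389, 0.00391, 0.00463 and 0.00835 in CD103Tg, against 0.0102, 0.00998, 0.00959 and 0.00982 in B6. CD103Tg was lower in 4 of 4 libraries, with a log2 difference of -1.01 ± 0.26 (SE). Itgae to Itga4, the alpha chains that share beta 7, was at 508, 681, 513 and 382 in CD103Tg, against 2.28, 2.79, 1.98 and 10.2 in B6, a log2 difference of 7.24 ± 0.57 (SE). The groups of both ratios did not overlap (exact permutation adjusted p = 0.0343 for each, from the smallest p the test can give). Itgb7 itself did not pass, so the shift of Itga4 to Itgb7 restates the Itga4 call and is no separate support. The shift of Itgae to Itga4 carries the limit given for Itgae to Itgb7.

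The beta 1 chain, the other partner of alpha 4, shifted as well. Itgb1 was at 1385, 1330.0, 1234 and 1004 CPM in CD103Tg, against 428, 455, 420.1 and 506 CPM in B6, with a log2 fold change of 1.44 ± 0.10 (SE; limma adjusted p = 2.5e-06). Itgb7 to Itgb1 was at 1.13, 1.181, 1.27 and 1.53 in CD103Tg, against 3.70, 3.61, 4.19 and 3.05 in B6. Itga4 to Itgb1 was at 0.00439, 0.00462, 0.00586 and 0.0128 in CD103Tg, against 0.0378, 0.0361, 0.0402 and 0.02995 in B6. Neither ratio overlapped between the groups, and the log2 differences were -1.51 ± 0.14 and -2.52 ± 0.37 (SE; exact permutation adjusted p = 0.0343 for each). With Itgb7 not called, the shift of Itgb7 to Itgb1 restates the Itgb1 call. That of Itga4 to Itgb1 combines the calls of Itga4 and Itgb1, so neither ratio is separate support.

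The catenins of the cadherin complex gave a smaller difference. Ctnna1 to Ctnnb1 was at 0.122, 0.115, 0.131 and 0.116 in CD103Tg, against 0.0735, 0.0746, 0.0936 and 0.115 in B6. The groups overlapped through B6 replicate 4, and the log2 difference of 0.46 ± 0.16 (SE) missed the threshold (exact permutation adjusted p = 0.0571). Without B6 replicate 4 it was 0.59, with an exact permutation adjusted p of 0.0343.

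**Figure D4:**
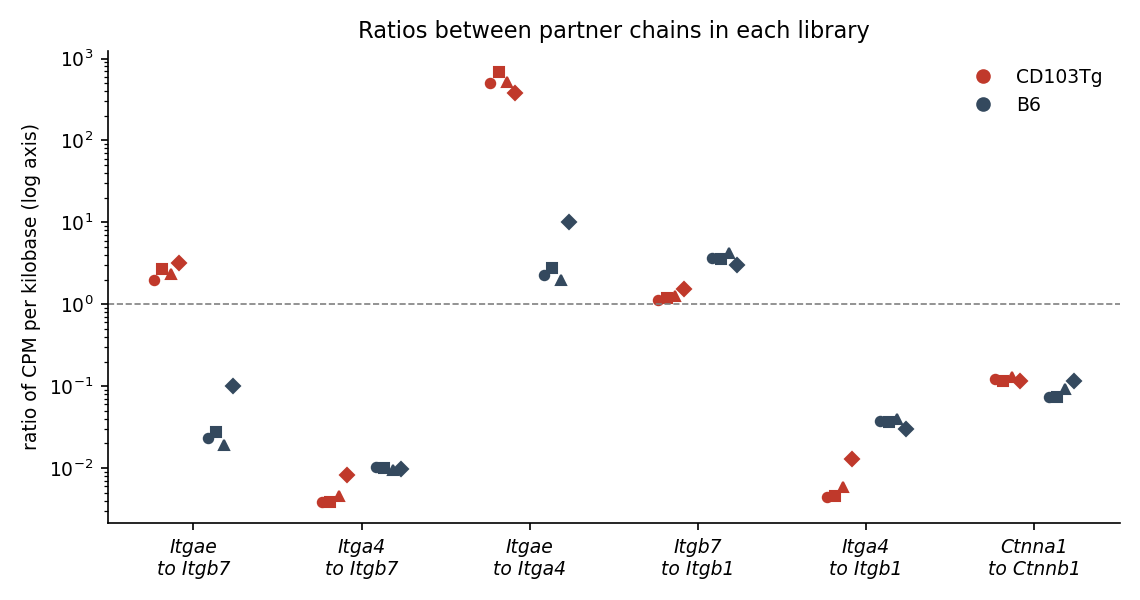
Ratio of CPM per kilobase between partner genes on a log axis, with 1 point per library, CD103Tg left of B6, a symbol for each replicate number and the dashed line at equal levels. Itgae to Itgb7 lies above the line in CD103Tg and below it in B6, and Ctnna1 to Ctnnb1 overlaps between the groups.

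For each gene, the 3 genes closest in pattern were taken by Pearson r of log2(CPM + 1) over the 8 libraries, among 8905 genes that averaged at least 5 CPM. For a called gene this r includes the step between groups, and all genes share the libraries. Itgae was closest to Hip1 (r = 0.995), Luzp1 (0.994) and Rgs12 (0.993), and 229 genes had an r of at least 0.95 with it. Cdh1 was closest to Slamf7 (r = 0.998), Fgl2 (0.997) and Serpina3g (0.997), with 303 such genes. Klrg1 was closest to Cisd3 (r = 0.984), the inhibitory receptor gene Klrc1 (0.982) and Itgax (0.981), with 107 such genes. The genes closest to Itga4 included Scml4 (r = 0.983) and Mier1 (0.982), with 68 such genes. Ctnna1, the least sharply separated of the called genes, was closest to Repin1 (r = 0.973), Ahdc1 (0.971) and Slc9a7 (0.969), with 6 such genes. Values centred within each group were used for the genes that were not called: Itgb7 was closest to Noa1 (r = 0.979), Bud31 (0.973) and Icam2 (0.970), and Ctnnb1 to Hnrnpc (r = 0.987), Ncbp2 (0.970) and Tmem59 (0.970).

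The genes around these 7 were read from 11 lists, of which 120 distinct genes were tested and 58 called, 48.3% beside 31.2% of all genes. Each list is described by its counts and by its median log2 fold change, beside a median of -0.005 over all genes, with up to 4 genes of smallest p named.

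Genes of the E-cadherin junction included calls in both directions. Of 30 adherens junction and cadherin family genes 12 were tested, of which 4 rose, 2 fell and 6 did not pass, with a median of -0.08. Actn1, an actin crosslinker, was at 25.5 ± 9.89 CPM in CD103Tg and 101 ± 10.6 CPM in B6 (SD, n = 4 each; log2 fold change -2.01 ± 0.20 SE, limma adjusted p = 2.4e-05). Vcl, vinculin, which joins alpha-catenin to actin, rose to 5.57 ± 1.19 CPM in CD103Tg, against 2.52 ± 0.466 CPM in B6. Pkp4, a relative of p120 catenin, also rose, with a log2 fold change of 0.44 ± 0.10, and Plekha7, a p120 binding protein, fell by 0.59 ± 0.12 on the log2 scale. The genes called as higher numbered 3 with a minimum of 5 CPM and with equal-total scaling. They also numbered 3 without any 1 of CD103Tg replicates 2, 3 and 4 or B6 replicates 1, 2 and 3. Quantile scaling called 4 genes of the list as lower.

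Of 14 genes of cadherin cleavage, maturation and turnover 13 were tested, of which 4 rose, 1 fell and 8 did not pass, with a median of 0.09. Adam10, the main sheddase of E-cadherin, was at 285 ± 19.9 CPM in CD103Tg and 279 ± 18.2 CPM in B6 and did not pass. Among gamma-secretase genes Psen2 fell by 0.50 ± 0.06 on the log2 scale and Aph1a rose by 0.44 ± 0.08. Furin, which cuts the E-cadherin precursor, rose by 0.40 ± 0.07 and Arf6, a trafficking GTPase gene, by 0.30 ± 0.06. Without both libraries numbered 4, and with array weights, 2 genes of the list were called as lower.

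Of 13 transcriptional repressors of Cdh1 9 were tested, of which 4 rose, 0 fell and 5 did not pass, with a median of 0.32. Cdh1 itself had risen in the same libraries. Ezh2, a histone methyltransferase, was at 39.1 ± 5.02 CPM in CD103Tg and 19.4 ± 2.62 CPM in B6 (SD, n = 4 each; limma adjusted p = 5.85e-05). Tcf3, which encodes E2A proteins, rose by 0.41 ± 0.06 on the log2 scale, and Zeb2, a low zinc finger gene, was at 2.13 ± 0.619 CPM in CD103Tg and 0.785 ± 0.404 CPM in B6. Zeb2 passed the filter on low values only through its CD103Tg libraries, so its call adds nothing to the count of the list, and 3 of the rises were of genes that averaged at least 1 CPM in B6. Snai3 rose by 0.32 ± 0.10 (limma adjusted p = 0.0276) and was no longer called under 7 alternatives. Zeb1 was at 46.5 ± 1.80 CPM in CD103Tg and 52.3 ± 4.43 CPM in B6 and did not pass. With quantile or equal-total scaling, array weights or the replicate block, 1 gene of the list was called as lower. The same held without B6 replicate 4 and without both libraries numbered 4.

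Calls in the list of beta-catenin's nuclear partners, which also holds co-repressors of TCF1 and LEF1, were all of lower levels in CD103Tg. Of its 18 genes 14 were tested, of which 0 rose, 9 fell and 5 did not pass, with a median of -0.27. Coactivator and co-repressor genes were both among those that fell, so the count gives no direction for beta-catenin activity. Lef1 was at 252 ± 25.6 CPM in CD103Tg and 539 ± 25.0 CPM in B6 (SD, n = 4 each; log2 fold change -1.10 ± 0.07 SE, limma adjusted p = 1.78e-06). Tcf7, which encodes TCF1, was at 745 ± 37.5 CPM in CD103Tg and 1212 ± 97.3 CPM in B6. The co-repressor gene Tle1 fell by 1.69 ± 0.14 and the coactivator gene Crebbp by 0.40 ± 0.06 on the log2 scale. Quantile and equal-total scaling gave the same counts, and with no filter on low values 1 gene was called as higher. The genes called as lower numbered 7 without CD103Tg replicate 1 or 2. They numbered 8 with a minimum of 5 CPM, with the replicate block, and without CD103Tg replicate 3 or B6 replicate 1, 2 or 3.

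Of 12 genes of the destruction complex, which marks beta-catenin for degradation, 12 were tested, of which 0 rose, 1 fell and 11 did not pass, with a median of -0.10. Gsk3b, a kinase of the complex, was at 71.3 ± 5.16 CPM in CD103Tg and 86.6 ± 3.17 CPM in B6 (SD, n = 4 each; limma adjusted p = 0.00507). The log2 fold changes of Ppp2r5a, Axin1 and Gsk3a were -0.16 ± 0.06, -0.10 ± 0.04 and -0.14 ± 0.07 (SE), and none passed. Quantile scaling called 3 of the list as lower and equal-total scaling 5. The count was 3 without B6 replicate 4, 2 without CD103Tg replicate 4 or with array weights, and 3 without both libraries numbered 4.

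Of 20 Wnt receptors and transducers 7 were tested, of which 1 rose, 1 fell and 5 did not pass, with a median of 0.09. The co-receptor gene Lrp6 fell by 0.52 ± 0.07 on the log2 scale and the receptor gene Fzd5, at 2.40 ± 0.194 CPM in CD103Tg and 1.37 ± 0.333 CPM in B6, rose. Ryk and Wls, with log2 fold changes of 0.45 ± 0.26 and 0.27 ± 0.15, did not pass. Of 19 beta-catenin and TCF target genes 9 were tested, of which 2 rose, 2 fell and 5 did not pass, with a median of -0.13. The 2 that fell were Lef1 and Tcf7, which also stand among the nuclear partners, and the 2 that rose were Ccnd2, a G1 cyclin, by 0.36 ± 0.07 and Myc by 0.30 ± 0.07. Axin2, a common readout of beta-catenin activity, was at 5.84 ± 0.915 CPM in CD103Tg and 5.71 ± 0.135 CPM in B6 and did not pass.

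**Figure D5:**
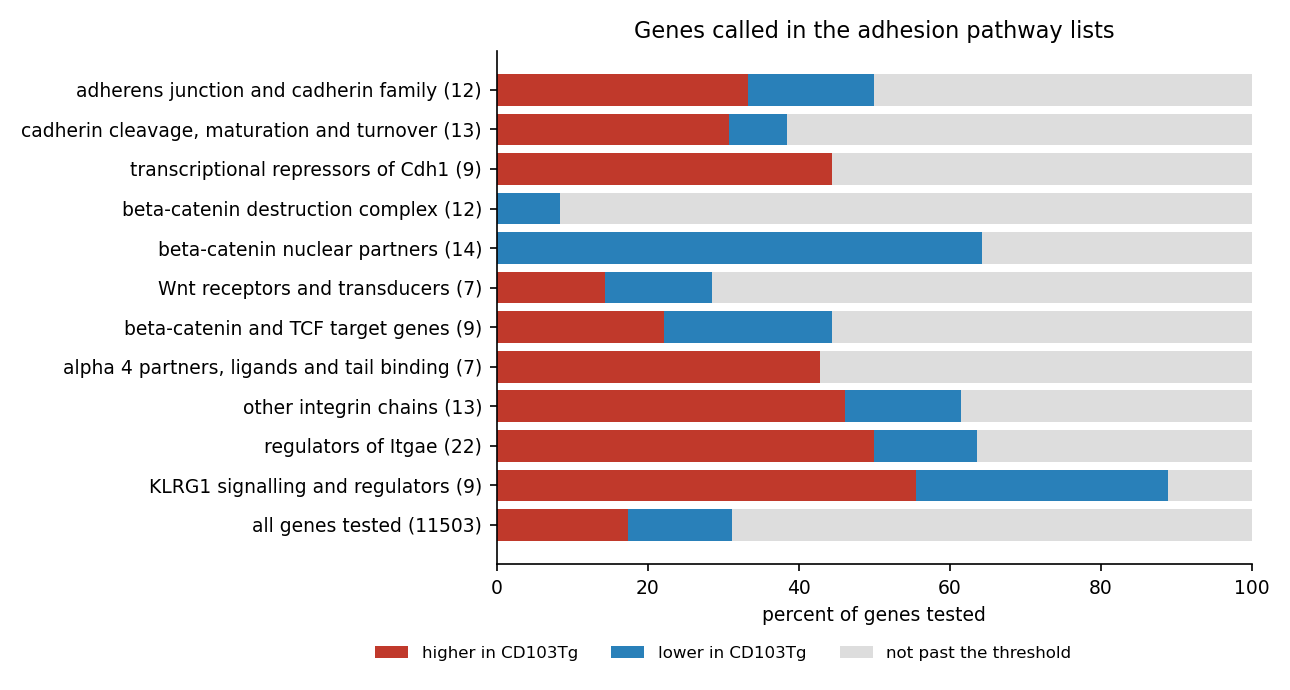
Share of tested genes in each pathway list that were higher in CD103Tg, lower in CD103Tg or not past an adjusted p of 0.05 in limma, with the number tested in brackets and all 11503 genes in the bottom bar. In the list of beta-catenin's nuclear partners, which also holds co-repressors, all calls were of lower levels, 9 of 14. The destruction complex had 1 call of 12.

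Around the integrin chains, 7 of 11 genes for alpha 4 partners, ligands and tail binding were tested, of which 3 rose, 0 fell and 4 did not pass, with a median of 0.06. Besides Itgb1 these were Pxn, which encodes paxillin, a binder of the alpha 4 tail, with a log2 fold change of 0.37 ± 0.06, and Fermt3, which encodes the integrin activator kindlin-3, with 0.24 ± 0.05. Apbb1ip, with -0.14 ± 0.06, did not pass. With quantile or equal-total scaling 2 genes of the list were called as lower. With array weights, without replicate 4 of either group and without both libraries numbered 4, 1 gene was called as lower. Of 23 other integrin chains 13 were tested, of which 6 rose, 2 fell and 5 did not pass, with a median of 0.25. Itga1 was at 14.1 ± 4.82 CPM in CD103Tg and 1.98 ± 0.757 CPM in B6, Itgax rose by 1.81 ± 0.19 on the log2 scale, and Itga6 fell by 0.72 ± 0.07. The genes called as lower numbered 1 without any 1 of CD103Tg replicates 1, 2 and 3 or B6 replicates 2 and 3. They also numbered 1 with a minimum of 5 CPM and with the Y-linked gene level in the fit. They numbered 3 with quantile or equal-total scaling, with array weights, without CD103Tg replicate 4 and without both libraries numbered 4.

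Of 22 regulators of Itgae all were tested, of which 11 rose, 3 fell and 8 did not pass, with a median of 0.17. Bhlhe40, a transcription factor of resident T cells, was at 50.4 ± 13.7 CPM in CD103Tg and 3.95 ± 0.823 CPM in B6 (SD, n = 4 each; log2 fold change 3.34 ± 0.20 SE, limma adjusted p = 1.1e-06). Ahr, the aryl hydrocarbon receptor, rose to 10.8 ± 1.21 CPM in CD103Tg, against 2.12 ± 0.528 CPM in B6, and Eomes, which opposes CD103 expression in mouse T cells, rose to 345 ± 31.0 CPM in CD103Tg, against 164 ± 12.8 CPM in B6. Smad3, a TGF-beta signal carrier that acts on Itgae, rose by 0.67 ± 0.06 on the log2 scale, whereas the receptor gene Tgfbr2 fell by 0.29 ± 0.06. Runx3 was at 180 ± 17.6 CPM in CD103Tg and 167 ± 11.1 CPM in B6 and did not pass. Without CD103Tg replicate 4, with array weights and with the replicate block, 5 genes of the list were called as lower.

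Of 9 genes of KLRG1 signalling and regulators all were tested, of which 5 rose, 3 fell and 1 did not pass, with a median of 0.36. Inpp5d, which encodes the phosphatase SHIP-1 that KLRG1 recruits, rose by 0.36 ± 0.06 on the log2 scale. Id2, a factor of effector T cells, was at 393 ± 85.0 CPM in CD103Tg and 73.3 ± 9.53 CPM in B6, and Id3, a factor of memory precursors, was at 30.2 ± 15.4 CPM in CD103Tg and 143 ± 15.3 CPM in B6. Tbx21, which encodes T-bet, rose by 0.62 ± 0.08. Prdm1 also rose, as did Zeb2 within the limit given above, and Bach2 and Ptpn6 fell. The groups of Ptpn6 overlapped (limma adjusted p = 0.0318). The genes of the list called as lower numbered 2 without any 1 of CD103Tg replicates 1, 3 and 4 or B6 replicates 2 and 3. They also numbered 2 without both libraries numbered 4.

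Some markers of other cell types that the sort could hold were called beside these groups, and others did not pass. Among all genes tested, 17.4% were called as higher and 13.8% as lower. The gamma delta T cell list had 4 of 8 genes measured and tested, of which 3 rose, and its summed level was 46.6 to 108 CPM in CD103Tg and 16.7 to 27.2 CPM in B6. The 3 were gamma chain constant genes: Tcrg-C1 was at 14.4 to 33.7 CPM in CD103Tg and 2.51 to 4.78 CPM in B6, Tcrg-C2 at 15.0 to 46.2 CPM in CD103Tg and 2.69 to 6.60 CPM in B6, and Tcrg-C4 at 4.92 to 13.5 CPM in CD103Tg and 1.17 to 3.32 CPM in B6. Trdc, the delta chain constant gene, was at 10.4 to 14.7 CPM in CD103Tg and 7.98 to 14.1 CPM in B6 and did not pass. The monocyte and macrophage list had 6 of 11 measured and 5 tested, of which 2 rose, with sums of 185 to 386 CPM in CD103Tg and 42.2 to 97.6 CPM in B6. Most of the sum in CD103Tg was Ccr2, which T cells also express, at 171 to 308 CPM in CD103Tg and 31.4 to 37.7 CPM in B6. Cd68, the other that rose, was at 2.37 to 5.45 CPM in CD103Tg and 0.871 to 1.87 CPM in B6. Lyz2 was at 9.42 to 78.3 CPM in CD103Tg and 2.42 to 55.0 CPM in B6 and did not pass (limma adjusted p = 0.194). Neither did Itgam (limma adjusted p = 0.661). Csf1r, at 1.09 to 7.36 CPM in CD103Tg and 0.607 to 4.77 CPM in B6, did not pass either. The B cell list had 8 of 10 measured and 3 tested, with sums of 35.5 to 45.6 CPM in CD103Tg and 31.9 to 35.9 CPM in B6. Its 2 calls, Cd79a at 1.44 to 2.18 CPM in CD103Tg and 0.478 to 0.767 CPM in B6 and Ebf1 at 1.44 to 2.42 CPM in CD103Tg and 0 to 0.205 CPM in B6, passed the filter on low values only through CD103Tg, and so are given as levels. The third, Cd79b, was at 27.9 to 35.6 CPM in CD103Tg and 29.9 to 34.2 CPM in B6 and did not pass. The plasma cell list had 9 of 10 measured and 7 tested, of which 6 were called higher, 4 of them passing the filter only through CD103Tg, and Ighm fell. The sums were 472 to 646 CPM in CD103Tg and 826 to 927 CPM in B6, and Ighm alone was at 304 to 493 CPM in CD103Tg and 763 to 852 CPM in B6. Igkc was at 5.77 to 85.2 CPM in CD103Tg and 0.222 to 2.32 CPM in B6, and Xbp1 at 92.8 to 114.0 CPM in CD103Tg and 58.7 to 76.2 CPM in B6. The 4, Jchain, Iglc2, Ighg2c and Igha, reached 3.72 to 40.3 CPM in their highest CD103Tg library and 0.288 to 2.28 CPM in their highest B6 library.

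The CD4 and regulatory T cell list had 6 of 8 measured and 4 tested, of which 1 rose and 1 fell, with sums of 5.67 to 9.63 CPM in CD103Tg and 10.003 to 13.8 CPM in B6. Of the stromal and endothelial markers 1 of 12 was measured, Pecam1, which fell and was at 58.8 to 70.9 CPM in CD103Tg and 78.0 to 98.1 CPM in B6. The granulocyte and mast cell list had 4 of 10 measured and 0 tested, with sums of 1.06 to 6.58 CPM in CD103Tg and 0.427 to 4.08 CPM in B6. The erythroid list had 5 of 6 measured and 0 called, with sums of 0.707 to 184.7 CPM in CD103Tg and 1.505 to 56.0 CPM in B6. The CD8 T cell list had 8 of 8 measured and tested, of which 0 rose and 2 fell, Cd8a and Trac, with sums of 8862 to 9838 CPM in CD103Tg and 9028 to 10453 CPM in B6. The part of these markers in the results was not tested.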

How the data were processed

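Per the labels, RNA of sorted cells was extracted with a column kit, and SMART-Seq v4 and Nextera XT kits made the libraries, which mark neither strand nor molecules. Per the submitters' processing notes, the tools were RSEM, STAR 2.7.0f, cutadapt 1.18 and bcl2fastq 2.17, and the builds mm10 and GRCm38. No source used here gives the annotation, and all 13245 gene IDs matched GENCODE M21.

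Per the labels, the authors deposited 1 table of TMM-scaled CPM for filtered genes, a normalized signal and not counts. No source used here gives the filter's rule. Columns summed to 962335 to 1022065. Estimated reads were recovered from the steps in the values, with 1 read worth 0.0171 to 0.0203 CPM, and 62.9% to 65.1% of values were whole within 0.005 of a read, so some reads had been divided between genes. These reads served for depth and 1 alternative. Intervals from replicates cover their spread, and read numbers counting error only. Replicate libraries differed by more than counting noise (chi-square per degree of freedom 22.0 to 59.1), so none was counted as a copy.

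The test was limma 3.58.1 (R 4.3.3) on log2(CPM + 1) for genes averaging at least 1 CPM, two-sided, with lmFit, eBayes with trend and genotype as its 1 term, and Benjamini-Hochberg adjustment over the 11503 genes and calls under 0.05. Fold changes are CD103Tg over B6. The fit was also run on simulated counts with the same dispersion for every gene and few changed genes. That setting is unlike these libraries, so the run supports no call here. Ratios used CPM per kilobase. Python 3.11.15 with numpy 2.4.6, scipy 1.17.1, pandas 2.3.3 and matplotlib 3.10.9 did the rest.

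The genes, the 11 pathway lists and the 13 marker lists were chosen with earlier results of these data known, and support nothing by themselves. Named besides the adhesion genes are the 3 most similar genes of each, up to 4 genes of smallest p in each pathway list, the leading markers, and Cd247. A gene that this rule names for Itga4 is not reported here. Other list genes and markers were chosen after their values were seen. RefSeq promoter windows were found for 3 of the 7 genes. The alternatives tried were array weights, robust eBayes, voom on estimated reads, the replicate number as a block, leaving out each library, scaling by equal totals, quantiles or median-of-ratios, a minimum of 5 CPM or none, and pseudocounts of 0.1 and 5. Chosen after seeing the data were a covariate of Y-linked gene level, leaving out both libraries numbered 4, and the longest transcript length.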

Additional observations from a re-analysis of the deposited data

Results flagged for a closer look

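Of 110 sets of 4 libraries examined, 15 held a library set apart from its group by more than Dixon's 95% limit for 4 values, and chance alone gives about 1 in 20. The sets share genes and libraries and are not independent.

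Replicate 4 of each group accounted for most of them. In B6 it was the high library for Itgae at 173.9 CPM, for the ratio of Itgae to Itgb7 at 0.1003, for Itgae to Itga4 at 10.2, for Cd247 at 478 CPM and for Snai3 at 44.0 CPM, and the low library for Lrp6 at 38.4 CPM. In CD103Tg it was the high library for Itga4 at 44.0 CPM and for the ratio of Itga4 to Itgb7 at 0.00835, and the low library for Zeb2 at 1.21 CPM. In each of these 9 sets the library lay toward the other group.

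CD103Tg replicate 1 was the high library for Klrg1 at 6.69 CPM and for Itgax at 33.4 CPM, and the low library for Itga6 at 61.7 CPM. CD103Tg replicate 2 was the high library for Tcf3 at 178 CPM and for Ccnd2 at 1134 CPM. B6 replicate 2 was the low library for Vcl at 1.83 CPM.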

How the results depend on the processing

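None of the 7 adhesion genes changed its call or, if called, its direction under 21 alternatives (20 for Klrg1, which was not tested at a minimum of 5 CPM). The calls of Itgae and Klrg1 carry the limits given above. Over them the log2 fold change ran from 5.91 to 6.64 for Itgae, 2.76 to 3.27 for Cdh1, 0.71 to 3.74 for Klrg1, 0.31 to 0.53 for Ctnna1 and -1.31 to -0.93 for Itga4. It ran from -0.09 to -0.03 for Itgb7 (limma adjusted p 0.167 to 0.741) and from -0.07 to 0.03 for Ctnnb1 (0.463 to 0.984). The genes called numbered 2786 to 3968, and the pathway list genes called 52 to 67, against 3592 and 58. Quantile scaling called 1741 of 3736 genes as higher and equal totals 1759 of 3609, against 2000 of 3592.

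Beside 5 of the list genes named, the ratios moved across the threshold. Without both libraries numbered 4 the exact permutation test cannot give a p below 0.1, and the log2 differences were 6.65 for Itgae to Itgb7, -1.27 for Itga4 to Itgb7, 7.92 for Itgae to Itga4, -1.68 for Itgb7 to Itgb1 and -2.95 for Itga4 to Itgb1. Leaving out 1 library gave -1.26 to -0.89 for Itga4 to Itgb7, whose exact permutation adjusted p was 0.0571 without any 1 of the B6 libraries, and 0.38 to 0.59 for Ctnna1 to Ctnnb1. The cause of the moves with 1 library left out was not tested.

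Replicate numbers were not shown to pair the libraries: same-numbered libraries' deviations from their group means correlated at 0.221, 0.350, -0.0807 and 0.123. With the replicate block limma called 3682 genes and the same number of adhesion genes, 5. For the ratios the block gives the same differences by construction (6.24, -1.01, 7.24, -1.51 and -2.52), and a sign-flip test over 4 pairs cannot give a p below 0.125. Among the list genes, Snai3 was not called under 7 alternatives: equal totals, the replicate block, and without CD103Tg replicate 1 or 3 or B6 replicate 1, 2 or 3, with limma adjusted p up to 0.0786. Ppp2r5a and Apbb1ip were called under 5 alternatives each, Gsk3a under 3 and Axin1 under 2, though not in the reported fit. The size of the Klrg1 change depended on the pseudocount, with a log2 fold change of 3.31 at 0.1 CPM and 0.71 at 5 CPM, against 1.83 at 1 CPM.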
